A study of Homo sapiens with 4 samples.

Results

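The lysosomal hydrolases and cathepsins described here are 36 genes of the 59050 in the deposited count table, chosen by their gene symbols. They were grouped by what they act on into 10 cysteine cathepsins (CTSB, CTSC, CTSF, CTSH, CTSK, CTSL, CTSO, CTSS, CTSV and CTSZ), 4 other peptidases (CTSA, CTSD, LGMN and TPP1), 12 glycosidases and related enzymes of glycan breakdown (GLB1, GAA, GLA, GUSB, HEXA, IDUA, MAN2B1, MANBA, NAGLU, FUCA1, NEU1 and AGA), 5 sulfatases (IDS, ARSA, ARSB, GALNS and SGSH) and 5 genes of lipid hydrolysis (PPT1, ASAH1, SMPD1, LIPA and PSAP). The cells were RCC4, an established line of human clear cell renal cell carcinoma (ccRCC) that lacks functional VHL. They carried either a doxycycline-inducible short hairpin RNA against PML (hairpin shPML#1, here shPML) or a scrambled hairpin (shCtrl), and both groups received 100 ng/ml doxycycline for 96 h. PML is the scaffold protein of the nuclear bodies named after it, and the comparison asks how its silencing changed the transcriptome of these cells. There were 2 experiments, each with its own lentiviral infections. Libraries of the same number, replicate 1 or replicate 2, were taken as the shCtrl and shPML libraries of 1 experiment. A single hairpin in a single cell line was sequenced, so an effect of the hairpin other than through PML cannot be told apart from that of PML silencing here.

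Lysosomal hydrolases are made in the endoplasmic reticulum, tagged in the Golgi with mannose 6-phosphate, and carried by receptors to endosomes and lysosomes, where they work at acidic pH. Cathepsins break down proteins, glycosidases and sulfatases take apart glycoproteins, glycolipids and glycosaminoglycans from their ends, and lipid hydrolases, helped by the saposins cut from PSAP, degrade sphingolipids and lipid esters. Many of these genes carry the CLEAR motif, an extended E-box bound by the MiT/TFE transcription factors TFEB, TFE3 and MITF, near their start sites. Lysosomal content often grows in senescent cells, and the β-galactosidase encoded by GLB1 gives the senescence-associated β-galactosidase stain.

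RNA was read in 4 libraries with between 27781193 and 69870617 counted reads, the fewest in shPML replicate 2. From 7.26% to 7.49% of a library fell on its 10 leading genes. Levels are given as CPM, counts scaled to library size, with edgeR's TMM factors. PML itself was at 93.1 and 136.0 CPM in shCtrl replicates 1 and 2 and at 54.9 and 87.6 CPM in shPML. The shPML libraries were thus the lowest pair, with a log2 ratio of −0.76 in experiment 1 and −0.63 in experiment 2, and an edgeR adjusted p of 4.19e-07 with the experiment as a block and 0.320 without it. All 12 markers of renal carcinoma cells checked, among them PAX8 and CA9, were at 27.8 CPM or more in every library.

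The library of shPML replicate 2 stood apart from the other 3. All 4 were read for 10 markers of macrophages and osteoclasts (PTPRC, CD14, CSF1R, CD163, AIF1, TYROBP, FCER1G, LST1, CALCR and OSCAR), cells of bone marrow origin that are rich in lysosomal cathepsins. Their summed level was 140.2 CPM in the library of shPML replicate 2, while it was 1.88 and 1.92 CPM in shCtrl and 0.642 CPM in shPML replicate 1. In shPML replicate 2, 9 of the 10 were at 1 CPM or more, led by CD14 with 1177 counts, which had 2, 4 and 3 counts in shCtrl replicates 1 and 2 and shPML replicate 1. CALCR was at 0 counts in all 4 libraries, where 0 counts allow up to 0.108 CPM in the shallowest. Of 6 lymphocyte markers, NKG7 had 219 counts in shPML replicate 2 and 0 in the other libraries, and CD3E, CD3D and MS4A1 were at 0 throughout, so that the summed level was 8.18 CPM there and at most 0.140 CPM elsewhere. The 5 endothelial markers summed to 17.2 and 33.1 CPM in shCtrl and 19.2 and 46.6 CPM in shPML. Most of this was EGFL7 alone, at 17.1 and 32.7 CPM in shCtrl and 19.0 and 42.2 CPM in shPML. PECAM1 was at 113 counts in shPML replicate 2 and at most 3 elsewhere. In shPML replicate 2, CDH5 and TEK were at 0 counts and VWF at 7. The part of this library's marker RNA in the results was not tested, and each called member is therefore given also within experiment 1, whose libraries held at most 1.88 CPM of the macrophage markers. In bulk RNA, a change in the number of cells of a kind and a change in RNA per cell cannot be told apart.

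**Figure D1:**
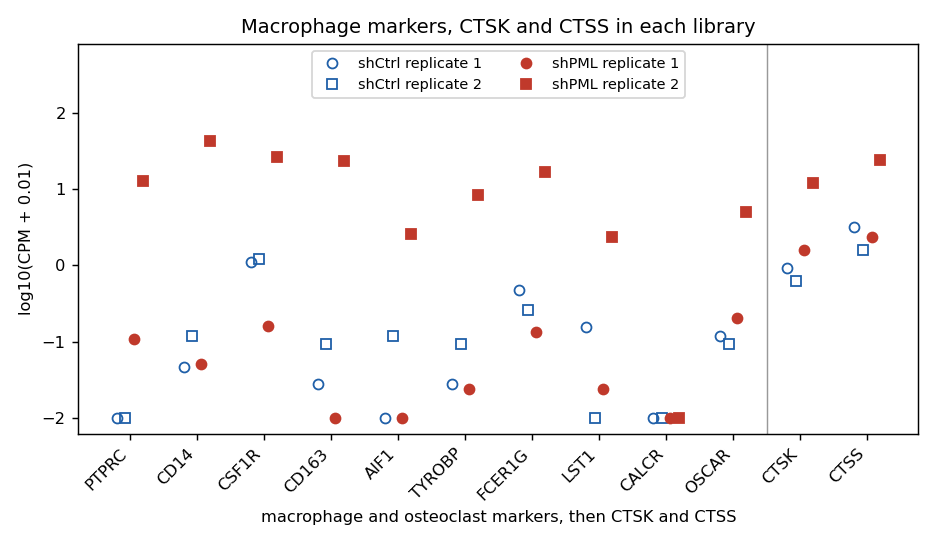
Levels of the 10 macrophage and osteoclast markers, of CTSK and of CTSS in each of the 4 libraries, as log10(CPM + 0.01). Open symbols are shCtrl and filled symbols shPML, circles replicate 1 and squares replicate 2. The squares of shPML replicate 2 stand above the other 3 libraries for 9 of 10 markers and for CTSK and CTSS, and CALCR is at 0 counts in every library.

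The replicate numbers were taken to mark the experiments, which neither the labels nor the study's methods state, and 2 fits are given. In the edgeR quasi-likelihood test without a block, calls needed a Benjamini-Hochberg adjusted p under 0.05 together with a change of more than 0.5 on the log2 scale. By this rule 0.0787% of the 16516 genes tested were higher and 0.333% lower in shPML. With the experiment as a block, 8.57% were higher and 10.5% lower. In counts simulated with the experiment effects of these libraries, 200 genes were changed. The test without the block called 0 of them and the test with it 181. Every simulated gene had the variation estimated by the fit with the block, so the simulation cannot decide between the 2 fits. "Rose" and "fell" below refer to the test with the block, and all adjusted p-values are from edgeR. For calls that the block changed, the adjusted p without it is given, singly or as a range. The SE and p-values rest largely on variation shared across genes and do not measure the spread of a gene between the 2 experiments. An SE can be far below the difference between the 2 experiment ratios of a gene, as in CTSS.

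All 36 genes had counts in every library, the lowest being 22, and all passed the filter on low counts. Without the block 0 of them were called higher and 1, NEU1, lower, and at an unadjusted p under 0.05 there were 11 higher and 3 lower, or 30.6% and 8.33% of the members, where 7.8% and 10.1% of all genes passed. With the block 15 of 36 rose, or 41.7% of the members beside the 8.57% of all genes, and 3 fell, or 8.33% beside 10.5%. The genes that rose were CTSB, CTSK, CTSO, CTSS, CTSA, CTSD, GAA, HEXA, IDUA, MANBA, FUCA1, ASAH1, SMPD1, PSAP and LIPA, at adjusted p-values from 0.0887 to 0.469 without the block. Those that fell were CTSC, CTSV and NEU1. DESeq2 with the block called 13 higher and 3 lower, without CTSO and CTSS among the higher, where it called 7.41% and 9.62% of all genes. Without the block it called 6 higher (CTSB, CTSK, CTSA, GAA, PSAP and LIPA) and the same 3 lower, beside 3.6% and 5.58% of all genes. In edgeR without a block and without shPML replicate 1, CTSK, CTSS and GAA were called higher and NEU1 lower, beside 1.09% and 0.354% of all genes. The only shPML library in that last fit was replicate 2, which held the macrophage marker RNA, so those calls rest on that library. The log2 ratios of CTSK and CTSS were 0.76 and −0.44 in experiment 1, against 4.21 and 3.89 in experiment 2. Those of GAA and NEU1 were 1.13 and −1.66 in experiment 1, and 1.83 and −1.57 in experiment 2. The list of members was chosen with results of these libraries known, so its counts are a description and were given no test of their own.

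Each experiment alone has 1 library per group and hence no test. Within experiment 1, 10 of the 15 that rose had a log2 ratio beyond 0.5 (the others were CTSO, CTSS, CTSA, FUCA1 and ASAH1). All 15 passed it within experiment 2, and the 3 that fell were beyond −0.5 in both experiments. These genes were called on the same libraries with a change beyond 0.5, so these counts cannot be set against all genes. Of all 36 members, 10 were above 0.5 in experiment 1 and 18 in experiment 2, beside 14.2% and 19.8% of all genes. Below −0.5 there were 3 of the 36 in each experiment, beside 17.4% and 20.1% of all genes. The log2 ratio was above 0 in both experiments for 26 of 36 members, or 72.2%, and for 37.0% of all genes. It was below 0 in both for CTSC, CTSF, CTSV, GLA and NEU1, or 13.9% of the members, and for 37.1% of all genes. The other 5, CTSS, CTSZ, ARSA, ARSB and PPT1, changed sign between experiments or were at 0 in one of them. For 27 of the 36 the ratio was larger in experiment 2. Both shPML libraries were above both shCtrl libraries for 23 members (23.1% of all genes) and below them for CTSC, CTSF, CTSV and NEU1 (24.9% of all genes).

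**Figure D2:**
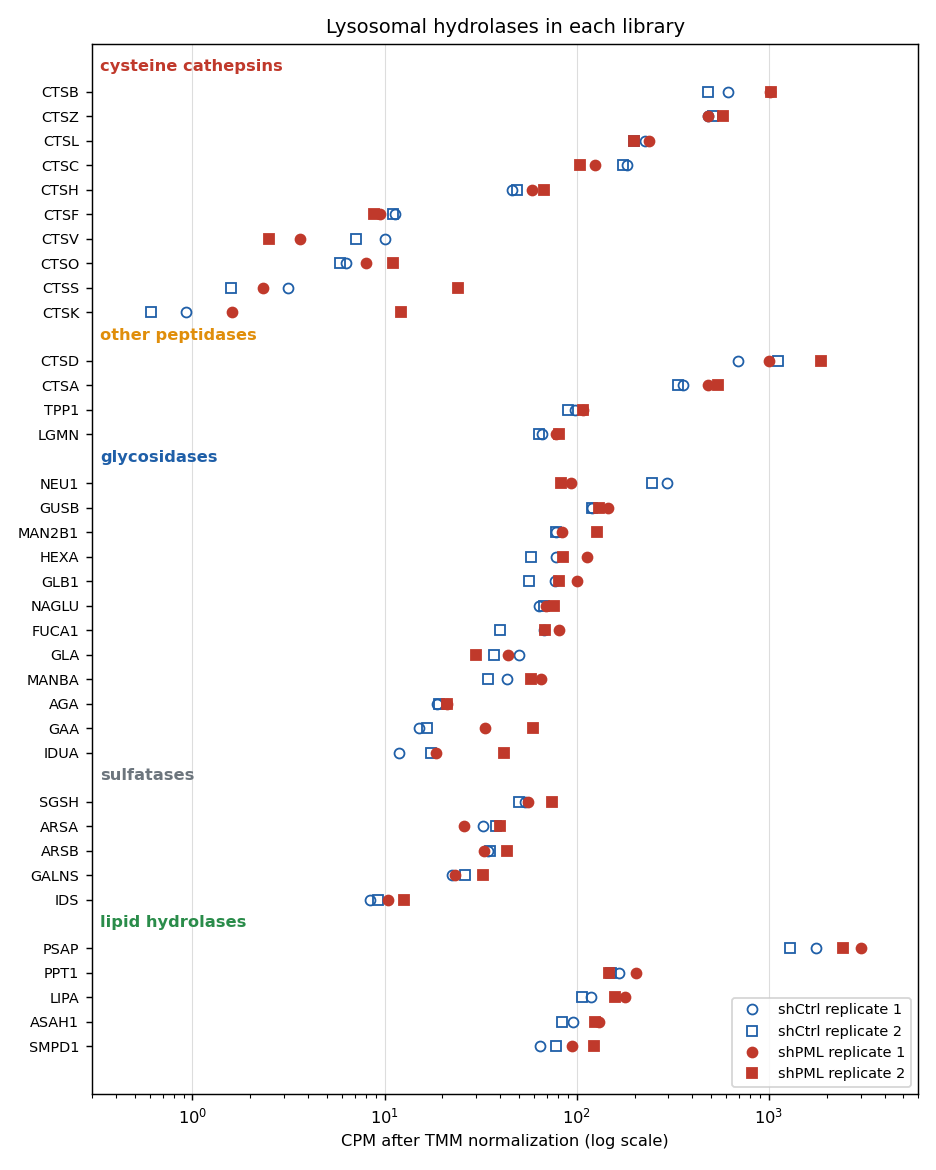
CPM of the 36 genes in each of the 4 libraries on a log scale, grouped by enzyme class and ordered by level within a class. Open blue symbols are shCtrl, filled red symbols shPML, circles replicate 1 and squares replicate 2. NEU1 and CTSV have both red symbols to the left of both blue ones, while GAA, CTSB, PSAP and MANBA have both to the right.

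Reads on the 36 genes made up 0.611% of all counts in shCtrl replicate 1 (95% Wilson interval 0.609% to 0.613%) and 0.555% in replicate 2 (0.552% to 0.557%). In shPML they made up 0.845% (0.843% to 0.847%) and 0.858% (0.855% to 0.862%), so that both shPML libraries were above both shCtrl libraries, and these intervals cover counting error only. PSAP, CTSB, CTSD and CTSZ held 58.4% and 59.5% of the members' counts in shCtrl and 66.8% and 68.0% in shPML. Without these 4 genes the other 32 took 0.254% and 0.225% of all counts in shCtrl and 0.281% and 0.275% in shPML, which still did not overlap.

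By class, reads on lipid hydrolases took 0.222% and 0.166% of all counts in shCtrl and 0.371% and 0.295% in shPML. Cysteine cathepsins took 0.159% and 0.141% in shCtrl and 0.199% and 0.201% in shPML. The other peptidases took 0.122% and 0.156% in shCtrl and 0.171% and 0.257% in shPML. In these 3 classes the groups did not overlap. Glycosidases took 0.0925% and 0.0769% in shCtrl and 0.0890% and 0.0850% in shPML, which overlapped. NEU1, the most abundant of them per length in shCtrl, fell while 5 others rose. Sulfatases took between 0.0152% and 0.0154% in the 2 shCtrl libraries and shPML replicate 1 and 0.0201% in shPML replicate 2.

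**Figure D3:**
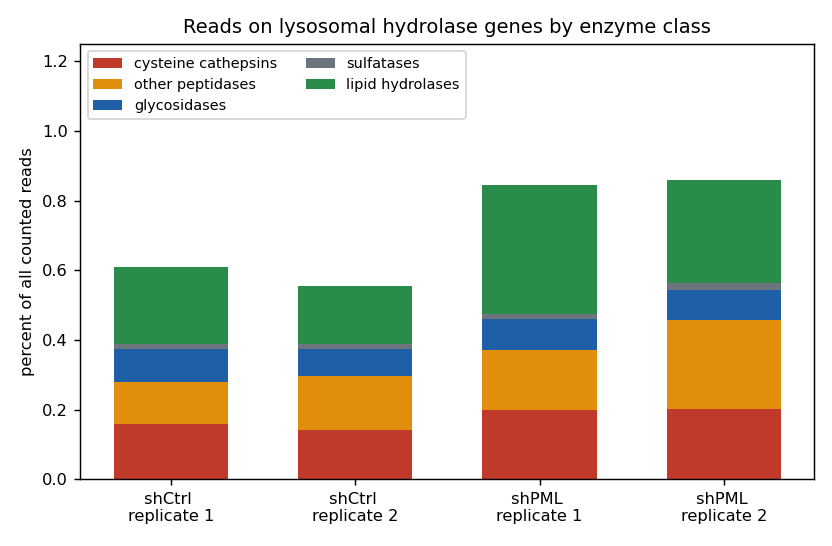
Percent of all counted reads that fell on each of the 5 enzyme classes in each library, stacked from 0. The total is 0.611% and 0.555% in shCtrl and 0.845% and 0.858% in shPML, with the lipid hydrolases, mostly PSAP, and the peptidases larger in shPML and the glycosidase segment similar in all 4.

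Divided by exon length, the members' mean levels in shCtrl ranked from the 70th to the 13407th of the 16516 genes tested. PSAP was the most abundant with a mean of 538.0 CPM per kilobase, followed by CTSD with 432.6, CTSZ with 330.8 and CTSA with 148.9 CPM per kilobase. CTSK, at 0.471, and CTSS, at 0.600 CPM per kilobase, were the lowest of the 36.

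NEU1 had the clearest fall. It encodes the lysosomal sialidase that removes terminal sialic acids from glycoproteins and gangliosides, and lies at chr6:31859052-31862906 on the minus strand of GRCh38, with no exon shared with another gene of the table. Its level was 294.6 and 245.3 CPM in shCtrl replicates 1 and 2 and 93.5 and 82.3 CPM in shPML. The groups were far apart, at a mean of 87.9 ± 7.89 CPM against 269.9 ± 34.9 CPM (SD, n = 2 each). The log2 fold change was −1.62 ± 0.18 (SE) without the block, with an adjusted p of 0.0484, and −1.62 ± 0.10 with it, with an adjusted p of 5.24e-20. The experiments gave log2 ratios of −1.66 and −1.57, and the fit without shPML replicate 2 gave −1.53, so the fall was of similar size without the library that held macrophage markers.

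The sialidase depends on a complex with CTSA, the serine carboxypeptidase also called protective protein, which in turn shelters the β-galactosidase GLB1 from degradation. CTSA (chr20:45891044-45898820, plus strand) was at 358.8 and 337.6 CPM in shCtrl and 484.4 and 545.8 CPM in shPML. The groups did not overlap, and CTSA rose with a log2 fold change of 0.56 ± 0.10 (SE, adjusted p = 3.27e-06 with the block and 0.159 without it). Its ratio was 0.43 in experiment 1 and 0.69 in experiment 2. CTSA shares from 8.55% to 10.6% of its exon bases with each of 3 genes on the opposite strand, which had at most 235 counts in any library against at least 12154 for CTSA.

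GLB1 (chr3:32996609-33097146, minus strand) was at 76.9 and 56.3 CPM in shCtrl and at 100 and 80.7 CPM in shPML. The lower of the shPML libraries exceeded the higher shCtrl library by a small margin. The log2 fold change was 0.45 ± 0.11 with the block, so GLB1 passed the p threshold (adjusted p = 0.00108) and stayed short of the fold threshold, and without the block the adjusted p was 0.380. It shares 9.55% of its exon bases on the same strand with TMPPE, which had at most 174 counts. Of the 3 genes of the complex, NEU1 thus fell, CTSA rose and GLB1 did not reach the fold threshold. Per kilobase of exon, NEU1 counts were 0.939 and 0.831 of those of CTSA in the shCtrl libraries and 0.221 and 0.173 in shPML. The ratio of GLB1 to CTSA was 0.189 and 0.147 in shCtrl and 0.182 and 0.131 in shPML, which overlapped. NEU1 to GLB1 went from 4.96 and 5.64 in shCtrl to 1.21 and 1.32 in shPML. These ratios are taken within a library and so do not depend on how the libraries were scaled.

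The promoters of members on both sides are shown because NEU1 fell while other genes with the same motif rose. RefSeq's table for GRCh38.p14, with 250 bases before and 50 after each start, held 24 of the 36 members. CTSB, CTSK, CTSO, CTSS, LGMN, HEXA, MANBA, NAGLU, ARSA, SGSH, ASAH1 and PSAP were not among them. The core of the CLEAR motif was searched as TCACGTG, which contains the E-box CACGTG and is itself contained in the palindrome TCACGTGA, on both strands. Each stretch is given 5′ to 3′ on the strand of its gene, with the match in capitals, so that a match on the opposite strand reads CACGTGA.
NEU1, chr6:31862915-31862975, minus strand: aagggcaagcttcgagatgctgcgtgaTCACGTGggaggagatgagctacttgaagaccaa
GAA, chr17:80101477-80101538, plus strand: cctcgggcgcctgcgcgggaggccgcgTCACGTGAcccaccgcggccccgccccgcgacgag
GAA, chr17:80101522-80101583, plus strand: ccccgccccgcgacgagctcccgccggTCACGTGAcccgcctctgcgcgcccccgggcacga
CTSA, chr20:45891282-45891343, plus strand: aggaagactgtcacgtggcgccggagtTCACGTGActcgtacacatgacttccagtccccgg
CTSD, chr11:1763941-1764001, minus strand: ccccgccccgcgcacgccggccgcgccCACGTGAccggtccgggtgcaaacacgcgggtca
GALNS, chr16:88857088-88857149, minus strand: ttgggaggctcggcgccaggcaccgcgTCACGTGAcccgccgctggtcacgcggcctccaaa

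The first base of the match lay 127 bases before the start site in NEU1, 77 and 32 in GAA, 26 in CTSA, 47 in CTSD and 175 in GALNS. The CTSA stretch holds another, 7-base match in lower case upstream of the one in capitals, and GALNS has a further one outside the stretch shown. TCACGTG was found in a promoter of 7 of the 24 members, or 29.2% (CTSF, CTSA, CTSD, GAA, NEU1, ARSB and GALNS). It was found in a promoter of 7.13% of the 10632 genes tested here that had one. These shares count genes, while counted by promoter it was in 3.71% of all 35116. The palindrome was found in CTSA, GAA and GALNS, or 12.5% of the 24 members, and in 2.24% of these genes tested. Counted by promoter it was in 0.98% of all. Of the 7 genes with a match, CTSA, CTSD and GAA rose, NEU1 fell, and CTSF, ARSB and GALNS had adjusted p-values of 0.234, 0.562 and 0.296 with the block. A match describes these letters only, and binding was not measured here.

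Among the cysteine cathepsins, papain-like proteases that degrade most proteins reaching the lysosome, 4 of 10 rose and 2 fell. CTSB, the endo- and exopeptidase with the highest level that rose, was at 609.1 and 484.6 CPM in shCtrl and 1013 and 1022 CPM in shPML. The shPML libraries were alike and both above shCtrl, with ratios of 1.66-fold in experiment 1 and 2.11-fold in experiment 2. CTSB rose with a log2 fold change of 0.91 ± 0.09 (adjusted p = 7.92e-12 with the block and 0.0889 without it), and the fit without shPML replicate 2 gave 0.89.

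CTSK and CTSS moved with the library that held macrophage markers. CTSK (chr1:150796208-150808260, minus strand), the collagen-degrading cathepsin of osteoclasts, was at 0.924 and 0.611 CPM in shCtrl, 1.604 CPM in shPML replicate 1 and 12.2 CPM in shPML replicate 2, from 50, 22, 115 and 335 counts. Both shPML libraries were higher, but by 1.70-fold in experiment 1 and 18.5-fold in experiment 2. The log2 fold change was 2.49 ± 0.43 with the block (adjusted p = 4.65e-06, and 0.196 without it), and 1.06 in the fit without shPML replicate 2. CTSS (chr1:150730188-150765792, minus strand), which trims the invariant chain in antigen-presenting cells, was at 3.16 and 1.58 CPM in shCtrl, 2.32 CPM in shPML replicate 1 and 24.2 CPM in shPML replicate 2. The groups overlapped, and the log2 ratio was −0.44 in experiment 1 and 3.89 in experiment 2. CTSS passed the test with the block (1.67 ± 0.41, adjusted p = 0.000829, and 0.318 without the block), and its log2 fold change was −0.04 without shPML replicate 2, so its rise rests on that library.

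The largest fall among the 10 cysteine cathepsins was in CTSV, a close paralog of CTSL with a narrow tissue range, which lies at chr9:97029677-97039643 on the minus strand. It was at 10.03 and 7.14 CPM in shCtrl and 3.63 and 2.51 CPM in shPML. Both shPML libraries were lower, by almost the same log2 ratio in each experiment, −1.46 and −1.49, and CTSV fell with a log2 fold change of −1.49 ± 0.24 (adjusted p = 8.94e-07 with the block and 0.106 without it). CTSL, the more abundant of the pair, was at 225.8 and 198.5 CPM in shCtrl and 238.6 and 199.5 CPM in shPML, which overlapped, with an adjusted p of 0.794 with the block. Reads that match both paralogs could have been assigned to either, which the counts do not show.

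CTSC, the dipeptidyl peptidase that activates granule serine proteases, also fell. It was at 182.1 and 173.4 CPM in shCtrl and 123.8 and 104.3 CPM in shPML, without overlap, and its log2 fold change was −0.64 ± 0.10 (adjusted p = 7.49e-07 with the block and 0.136 without it). The ratios were −0.56 and −0.73 in experiments 1 and 2, and the fitted value was −0.52 without shPML replicate 2. Of the other 5 cysteine cathepsins, CTSO rose (0.62 ± 0.20, adjusted p = 0.0144, and 0.276 without the block), with ratios of 0.35 in experiment 1 and 0.91 in experiment 2 and a value of 0.40 without shPML replicate 2. CTSH passed the p threshold short of the fold, at 0.40. CTSZ, the most abundant cysteine cathepsin per kilobase, was at 479.6 and 514.2 CPM in shCtrl and 479.2 and 576.2 CPM in shPML, and CTSZ, CTSL and CTSF had adjusted p-values of 0.573, 0.794 and 0.234 with the block. The fitted log2 fold changes of the 10 with the block thus ran from −1.49 to 2.49, in CTSK, the widest span of the 5 classes. Within experiment 1 alone their ratios ran from −1.46 in CTSV to 0.76 in CTSK. The glycosidases then had a wider span, from −1.66 in NEU1 to 1.13 in GAA.

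Of the 4 other peptidases, 2 rose. CTSD, the aspartic protease of the lysosome (chr11:1752755-1763948, minus strand), was at 687.5 and 1109 CPM in shCtrl and 998.3 and 1862 CPM in shPML. The groups overlapped, since shCtrl replicate 2 lay above shPML replicate 1, while within each experiment the shPML library was higher, by 1.45-fold and 1.68-fold. CTSD rose with a log2 fold change of 0.64 ± 0.09 (adjusted p = 3.35e-08 with the block and 0.433 without it), and fits without a block on 3 libraries ran from 0.15, without shPML replicate 2, through 0.38, without shCtrl replicate 1, to 1.04 and 1.05 without shPML replicate 1 and shCtrl replicate 2. Its exon bases are shared to 55.9% on the same strand with another annotated gene, AC068580.4, which had from 6 to 50 counts. LGMN, the asparaginyl endopeptidase that processes other cathepsins, had a log2 fold change of 0.30 with an adjusted p of 0.0316, short of the fold threshold. TPP1, which takes tripeptides from protein ends, was at 0.20 with an adjusted p of 0.163.

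The glycosidases divided into 5 that rose, NEU1 that fell, and 6 others, of which GLB1 and MAN2B1 passed the p threshold alone. GAA, the acid α-glucosidase that degrades glycogen (chr17:80101581-80119881, plus strand), had the largest rise. It was at 15.1 and 16.6 CPM in shCtrl and 33.1 and 59.1 CPM in shPML. These groups were well apart, with ratios of 2.19-fold in experiment 1 and 3.56-fold in experiment 2. The log2 fold change was 1.48 ± 0.14 with the block (adjusted p = 8.9e-14, and 0.0887 without it) and 1.07 without shPML replicate 2.

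IDUA, the α-iduronidase of heparan and dermatan sulfate breakdown (chr4:986997-1004564, plus strand), was at 11.9 and 17.4 CPM in shCtrl and 18.4 and 41.7 CPM in shPML. The shPML libraries were higher, though shPML replicate 1 lay only just above shCtrl replicate 2. IDUA rose with a log2 fold change of 0.94 ± 0.14 (adjusted p = 1.29e-07 with the block and 0.294 without it). Its log2 ratio was 0.63 in experiment 1 and 1.26 in experiment 2, and without shPML replicate 2 the fitted value was 0.33. It shares 6.35% of its exon bases with SLC26A1 on the opposite strand, which had at most 232 counts.

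MANBA, the β-mannosidase that cleaves the last mannose of N-glycans (chr4:102630770-102760983, minus strand), was at 43.3 and 34.5 CPM in shCtrl and 64.9 and 57.5 CPM in shPML. The groups did not overlap, and MANBA rose by a similar ratio in both experiments, 0.58 and 0.74 on the log2 scale, with a fitted value of 0.66 ± 0.12 (adjusted p = 8.54e-06 with the block and 0.161 without it). HEXA, the α subunit of β-hexosaminidase, rose with a log2 fold change of 0.54 ± 0.11, and FUCA1, the α-fucosidase, with 0.51 ± 0.12. Their adjusted p-values were 6.74e-05 and 0.000514 with the block and 0.306 and 0.469 without it. HEXA had ratios of 0.53 and 0.56 in experiments 1 and 2, and FUCA1 of 0.26 and 0.78. The fitted value of HEXA was 0.33 without shCtrl replicate 2 and 0.31 without shPML replicate 1, and that of FUCA1 0.92 without shCtrl replicate 1 and 0.14 without shCtrl replicate 2.

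Among the 6 other glycosidases, MAN2B1, the α-mannosidase, was at 78.4 and 78.2 CPM in shCtrl and 84.1 and 126.8 CPM in shPML, so that most of its difference lay in shPML replicate 2. Its log2 fold change was 0.40 with the block and 0.10 without that library. GUSB, NAGLU and AGA had values from 0.15 to 0.20 and adjusted p-values from 0.138 to 0.416, and GUSB has pseudogenes that can share its reads. GLA, the α-galactosidase, was the only one besides NEU1 with ratios below 0 in both experiments, at −0.19 and −0.32, with an adjusted p of 0.114.

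No sulfatase passed both thresholds in edgeR with the block (0 of 5), nor in edgeR or DESeq2 without it, nor in DESeq2 with it. At an unadjusted p under 0.05 in edgeR there were 0 without the block, where 7.8% of all genes were higher and 10.1% lower, and 2 with it. The share of all genes at that threshold with the block is not given, so the 2 cannot be set against it. These enzymes remove sulfate groups from glycosaminoglycans and, in ARSA, from sulfatide. Their fitted log2 fold changes with the block ran from −0.13 in ARSA to 0.38 in IDS. SGSH, the sulfamidase of heparan sulfate, passed the p threshold alone (0.31, adjusted p = 0.0453) and was at 54.0 and 49.9 CPM in shCtrl and 55.8 and 74.5 CPM in shPML. Without shPML replicate 2 the median of the 5 was −0.05, and with all libraries it was 0.20. IDS shares 81.3% of its exon bases on the same strand with AC244197.3, which had from 2 to 28 counts.

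Of the 5 genes of lipid hydrolysis, 4 rose. PSAP encodes prosaposin, the precursor of the saposins that lift sphingolipids to their hydrolases, and lies at chr10:71816298-71851325 on the minus strand. It was at 1763 and 1284 CPM in shCtrl and 3009 and 2434 CPM in shPML. Both shPML libraries were above both shCtrl libraries, and PSAP rose with a log2 fold change of 0.85 ± 0.09 (adjusted p = 2.34e-12 with the block and 0.147 without it). Its log2 ratio was 0.77 in experiment 1 and 0.92 in experiment 2, and the fit without shPML replicate 2 gave 0.98.

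SMPD1, the acid sphingomyelinase (chr11:6390474-6394996, plus strand), was at 64.0 and 78.0 CPM in shCtrl and 94.1 and 123.0 CPM in shPML. LIPA, the acid lipase of cholesteryl esters and triglycerides (chr10:89213569-89414557, minus strand), was at 118.6 and 106.9 CPM in shCtrl and 179.3 and 158.7 CPM in shPML. In both genes the shPML libraries were above both shCtrl libraries and the experiments gave log2 ratios close to each other, 0.56 and 0.66 for SMPD1 and 0.60 and 0.57 for LIPA. SMPD1 rose by 0.61 ± 0.11 on the log2 scale (adjusted p = 8.26e-06 with the block and 0.213 without it). LIPA rose by 0.58 ± 0.10 (adjusted p = 5.34e-06 with the block and 0.155 without it). Without shPML replicate 2 the values were 0.41 and 0.67.

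ASAH1, the acid ceramidase, rose with a log2 fold change of 0.50 ± 0.11, just past the fold threshold (adjusted p = 0.000113 with the block and 0.191 without it), and ratios of 0.44 and 0.56 in experiments 1 and 2. PPT1, the palmitoyl-protein thioesterase, was at 165.4 and 151.3 CPM in shCtrl and 202.9 and 146.9 CPM in shPML and had an adjusted p of 0.386. PPT1 shares 27.3% of its exon bases with CAP1 on the opposite strand, which was at 824.8 and 779.4 CPM in shCtrl and 432.5 and 371.2 CPM in shPML. The strand setting of the counting is not given in the sources used here, so the counts of PPT1 are uncertain.

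Set side by side without a test, the median log2 fold changes of the classes in the fit without the block were 0.58 for lipid hydrolysis, 0.44 for the other peptidases, 0.43 for the glycosidases, 0.25 for the cysteine cathepsins and 0.20 for the sulfatases. The median of all 36 was 0.40 and that of all genes tested 0.01. With the block the same medians were 0.58, 0.43, 0.42, 0.24 and 0.19, with 0.39 for all members and 0.00 for all genes. Within experiment 1 they were 0.56, 0.34, 0.27, 0.04 and 0.05, with 0.27 for all members, and within experiment 2 they were 0.57, 0.53, 0.54, 0.31 and 0.32, with 0.49 for all members, where all genes had a median of 0.00 in each. The median of the lipid class was thus nearly equal in both experiments, while those of the other 4 classes were higher in experiment 2. The classes hold from 4 to 12 genes, and whether they differ from each other was not tested.

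**Figure D4:**
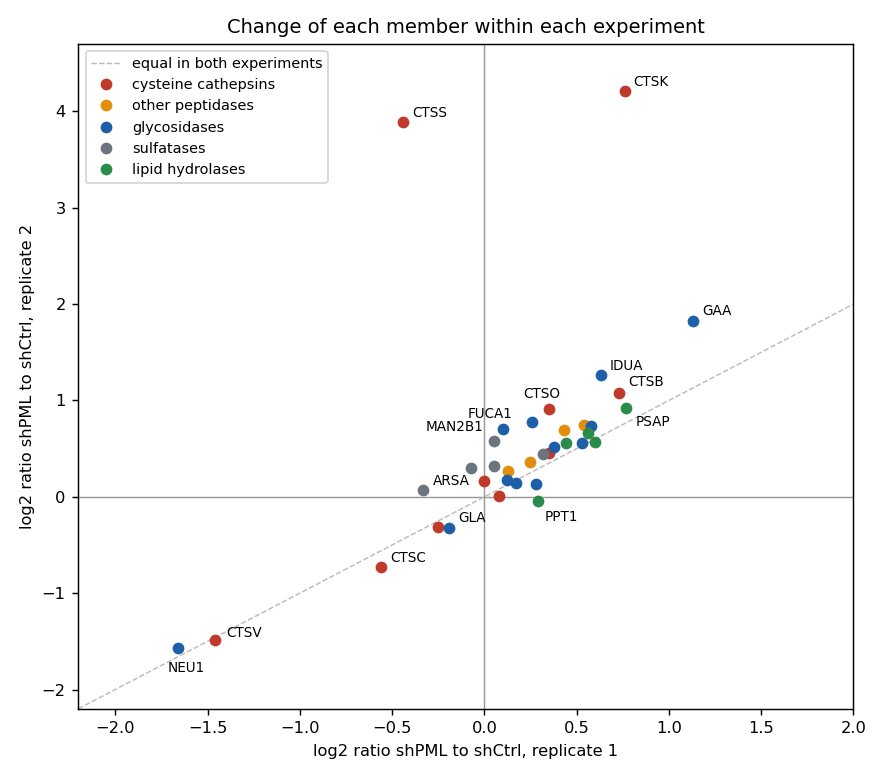
Log2 ratio of shPML to shCtrl within experiment 1 (replicate 1, horizontal axis) and experiment 2 (replicate 2, vertical axis) for the 36 genes, coloured by enzyme class, with a dashed line where both are equal. NEU1 and CTSV lie below 0 on both axes and near the line, GAA and PSAP above 0 on both, and CTSK and CTSS far above the line at 4.21 and 3.89 in experiment 2.

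Genes that work beside these enzymes were read from 4 lists of 77 genes in the table, of which 62 passed the filter on low counts. With the block 13 rose and 9 fell, or 21.0% and 14.5% of those tested, beside 8.57% and 10.5% of all genes. Without the block 0 were called higher and 1, GGH, lower, and at an unadjusted p under 0.05 there were 12 and 9. These were 19.4% and 14.5% of those tested, beside 7.8% and 10.1% of all genes. Of 44 other lysosomal hydrolases 37 were tested, of which 6 rose (among them MAN2B2, ACP2, ACP5, SCPEP1 and CPQ) and 5 fell (HYAL2, PLA2G15, GGH, NPC2 and CTSW), with a median of −0.01. The shares called were 16.2% higher and 13.5% lower in this wider list, and the median of all genes was 0.01. MAN2B2 and SCPEP1 had adjusted p-values of 0.239 and 0.414 without the block, and PLA2G15 and NPC2 of 0.0835 and 0.114.

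ACP5, the tartrate-resistant acid phosphatase used as an osteoclast and macrophage marker, was at 4.51 and 1.53 CPM in shCtrl and 25.0 and 43.0 CPM in shPML. Both shPML libraries were higher, also in experiment 1, where the log2 ratio was 2.46 and the shPML library held 0.642 CPM of macrophage markers. ACP5 rose with a log2 fold change of 3.44 ± 0.22 (adjusted p = 7.84e-20 with the block and 0.0682 without it). ACP2, the lysosomal acid phosphatase, was at 15.98 and 22.3 CPM in shCtrl and 29.8 and 41.6 CPM in shPML. CPQ, a carboxypeptidase, was at 20.5 and 15.8 CPM in shCtrl and 34.5 and 22.7 CPM in shPML. Neither overlapped between groups, and they rose by 0.90 ± 0.13 and 0.64 ± 0.13 on the log2 scale (adjusted p = 3.89e-08 and 7.51e-05 with the block, and 0.166 and 0.285 without it).

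GGH, the γ-glutamyl hydrolase that shortens folate polyglutamates, was at 61.0 and 68.2 CPM in shCtrl and 18.9 and 19.7 CPM in shPML. The shPML libraries were alike and well below shCtrl, and GGH fell with a log2 fold change of −1.74 ± 0.12 (adjusted p = 5.24e-18 with the block and 0.0484 without it). HYAL2, a hyaluronidase, was at 59.5 and 67.1 CPM in shCtrl and 27.9 and 33.6 CPM in shPML, without overlap, and its log2 fold change was −1.04 ± 0.12 (adjusted p = 1.4e-10 with the block and 0.0707 without it). CTSW, a cathepsin of cytotoxic lymphocytes, was at 1.64 and 1.08 CPM in shCtrl and 0.544 and 0.182 CPM in shPML, also without overlap. It had 89 and 39 counts in shCtrl and 39 and 5 in shPML, so its level in shPML replicate 2 rests on few reads. Its log2 fold change was −1.96 ± 0.58 (adjusted p = 0.00652 with the block and 0.253 without it).

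Of 17 genes for delivery to the lysosome, 5 rose (IGF2R, GNPTG, SORT1, SORL1 and CLN8) and 3 fell (M6PR, SCARB2 and LMAN1). The pair of mannose 6-phosphate receptors went opposite ways. M6PR, the cation-dependent receptor, was at 243.6 and 210.4 CPM in shCtrl and 132.1 and 121.3 CPM in shPML, without overlap, and fell with a log2 fold change of −0.84 ± 0.10 (adjusted p = 5.57e-10 with the block and 0.0865 without it). IGF2R, the cation-independent receptor, rose by 0.57 ± 0.10 (adjusted p = 2.85e-06 with the block and 0.210 without it). M6PR shares 43.1% of its exon bases with PHC1 on the opposite strand. GNPTG, a subunit of the enzyme that makes the mannose 6-phosphate tag, was at 44.5 and 52.3 CPM in shCtrl and 69.9 and 97.6 CPM in shPML. It rose without overlap by 0.78 ± 0.12 (adjusted p = 1.51e-07 with the block and 0.155 without it), and 41.9% of its exon bases are shared with UNKL on the opposite strand. CLN8, which carries hydrolases out of the endoplasmic reticulum, was at 27.8 and 26.8 CPM in shCtrl and 50.01 and 48.6 CPM in shPML. Replicates were alike, and CLN8 rose by 0.85 ± 0.12 (0.85 in each experiment, adjusted p = 5.53e-08 with the block and 0.0740 without it). SORT1 had an adjusted p of 0.000101 with the block and 0.198 without it.

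LMAN1, a cargo receptor of the same step, was at 170.4 and 235.8 CPM in shCtrl and 110.9 and 121.9 CPM in shPML. SCARB2, the receptor of β-glucocerebrosidase, was at 177.6 and 174.4 CPM in shCtrl and 117.9 and 126.7 CPM in shPML. Neither gene overlapped between groups. Their log2 fold changes were −0.78 ± 0.10 and −0.53 ± 0.10, with adjusted p-values of 7.8e-09 and 3.13e-05 with the block and 0.140 and 0.161 without it. SORL1, a sorting receptor, was at 0.370 and 0.389 CPM in shCtrl, 1.00 CPM in shPML replicate 1 and 4.84 CPM in shPML replicate 2, so its rise of 2.52 ± 0.52 (adjusted p = 8.39e-05 with the block and 0.170 without it) was larger in the library with macrophage markers.

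Of 12 inhibitors of cysteine cathepsins only 5 passed the filter, of which the cystatins CSTB and CST3 rose and CST6 fell. CSTB was at 626.3 and 539.0 CPM in shCtrl and 776.0 and 883.0 CPM in shPML, and its log2 fold change was 0.51 ± 0.10 (adjusted p = 1.81e-05 with the block and 0.211 without it). CST6 had 16 and 18 counts in shCtrl and 0 and 1 in shPML, too few for a fold change to be read, with adjusted p-values of 0.00768 with the block and 0.175 without it. For CST3 they were 1.24e-05 and 0.443. Of the 4 MiT/TFE factors, edgeR tested TFEB, TFE3 and MITF and DESeq2 all 4, and with all libraries 0 were called by either, with or without the block. At an unadjusted p under 0.05 there were 0 in edgeR without the block and 2, TFEB and MITF, with it. The share of all genes at that threshold with the block is not given, so this count has no background. With the block the log2 fold changes of TFEB, TFE3 and MITF were 0.34, 0.07 and 0.24 and their adjusted p-values 0.124, 0.679 and 0.0855. TFEC, the fourth, had 153 counts in shPML replicate 2 and at most 9 in the other libraries, and did not pass the edgeR filter. In the edgeR fit without shPML replicate 1 it passed only through shPML replicate 2, the library that held the macrophage marker RNA. No call of TFEC is read from that fit.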

How the data were processed

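RNA of 4 RCC4 libraries, 2 shCtrl and 2 shPML, was analysed. The authors made stranded mRNA libraries, trimmed single-end reads with Trimmomatic 0.39, used STAR for alignment to GRCh38, and summed reads per gene with featureCounts 1.6.4. The deposited values are raw counts without normalization. The Gencode release and strand setting are not given in the sources used here. The shCtrl and shPML columns without a number were taken as replicate 1, since the other column of each group carries the number 2. The labels used are those in force after the submitters corrected a swap between 2 samples. No column was left unused.

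Counts were analysed with R 4.3.3, edgeR 4.0.16 and DESeq2 1.42.0, and with Python 3.11.15 and pandas 2.3.3. Genes were filtered with filterByExpr, scaled by TMM and tested with the edgeR quasi-likelihood test over 16516 genes, with Benjamini-Hochberg adjustment, and calls needed an adjusted p under 0.05 together with a change of more than 0.5 on the log2 scale. Log2 ratios within an experiment used CPM with a pseudocount of 0.05. The SE of an edgeR log2 fold change is its size divided by the square root of the F statistic. The smallest two-sided p of an exact permutation test on 2 and 2 libraries is 0.333, so none was used.

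The numbers were taken to pair the libraries by experiment. The study's methods describe 2 experiments with independent infections and do not tie a replicate number to either. Deviations from the group means of the same-numbered libraries had a correlation of 0.546 across genes, and the block lowered the common dispersion from 0.0813 to 0.0137. The fits were tested on simulated data of 16516 genes with 200 changed ones. Counts were drawn from the mean of each gene in each experiment, with the common dispersion of the block fit for every gene. This setting is that of the fit with the block, so the simulation cannot decide between the fits. Without the block edgeR found 0 and DESeq2 123 of the changed genes. With the block edgeR found 181, made up of 85 of 100 at a log2 change of 1 and 96 of 100 at 2, beside 8 unchanged genes, and DESeq2 found 153.

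All 36 members are named. Library values and statistics are given for GLB1, CTSA and NEU1 and, in each class and list, for up to 3 genes in each direction with the largest change among those called with the block (in the other lists also without overlap between groups). SCPEP1, MAN2B2, PLA2G15, NPC2, IGF2R, SORT1, CST3 and the MiT/TFE factors were named to fill counts or contrasts, and some list genes are not reported here by name. The members, classes, companion lists and marker lists come from general knowledge and were chosen with earlier results of these data known. The alternatives were DESeq2, the replicate block, RLE or library totals for scaling, other filters and fold thresholds, each library left out in turn, and, chosen after the counts were seen, scaling changes with the block and each experiment alone.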

Additional observations from a re-analysis of the deposited data

How the results depend on the processing

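In edgeR without the block, 13 genes were called higher and 55 lower, 0 and 1 of them members and 0 and 1 companion genes. The replicate block pairs the libraries by replicate number. With it the counts were 1415 and 1735 for all genes, 15 and 3 for members and 13 and 9 for companion genes. DESeq2 gave 545 and 845, 6 and 3, and 5 and 6 without the block, and 998 and 1297, 13 and 3, and 14 and 7 with it. RLE scaling gave 0 for all 6 counts without the block, where an unadjusted p under 0.05 was reached by 1352 higher and 1615 lower genes, with 11 and 3 members among them, and gave 1434 and 1657, 15 and 3, and 14 and 9 with it. Library totals gave 24 and 70 without the block, with the member and companion counts as before, and 1567 and 1649, 15 and 3, and 14 and 9 with it. No filter on low counts gave 891 and 946, 7 and 2, and 9 and 6, and at least 10 counts in every library gave 53 and 144 for all genes. Leaving out 1 library at a time gave from 0 to 187 genes higher and 0 to 61 lower, from 0 to 3 members higher and 0 to 1 lower, and from 0 to 3 companion genes higher and 0 to 1 lower, with calls only without shPML replicate 1. These fits leave 1 library in a group, which is assumed to vary like the other pair. The absence of calls in such a fit therefore does not show an absence of change. The cause of these differences was not tested.

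The median log2 fold change of all 36 members ran from 0.26 to 0.38 with 1 library left out. That of the lipid genes was 0.60 under RLE scaling with or without the block and with at least 10 counts, 0.61 under library totals with or without the block, 0.56 and 0.57 within experiments 1 and 2, and from 0.48 to 0.61 with a library left out. The cysteine cathepsins had 0.04 within experiment 1. The glycosidases ran from 0.21 to 0.57, the other peptidases from 0.24 to 0.48 and the sulfatases from −0.05, without shPML replicate 2, to 0.42. Among single members, 11 values changed sign with a library left out. None of them was in NEU1, the only member called without the block, while CTSS, which rose with the block, was among them. The lowest and highest values over these fits were −0.04 and 3.32 for CTSS, −0.05 and 0.20 for CTSZ, −0.56 and 0.01 for GLA, −0.44 and 0.17 for ARSA, −0.09 and 0.31 for ARSB and −0.12 and 0.36 for PPT1. CTSL reached −0.10 and GALNS −0.05. With 2 libraries in a group, calls depend on the block. The ratio of 27 of the 36 members was larger in experiment 2, whose shPML library held the macrophage marker RNA.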
